A study of Mus musculus with 2 samples.

Results

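The genes described here are those named as protein tyrosine phosphatases and dual-specificity phosphatases, measured in mouse T cell blasts on 2 microarrays. Members were the probe sets whose single annotated symbol was Ptpn with a number, Ptpr with a letter, or Dusp with a number, and Ptprcap, which encodes a partner of CD45 and not a phosphatase, was left out. This gave 128 of 45037 probe sets and 58 of 18193 named genes. Of the 58 genes, 18 are named as receptor-type phosphatases (Ptpr), 16 as non-receptor phosphatases (Ptpn) and 24 as dual-specificity phosphatases (Dusp). RefSeq lists 57 as protein-coding and 1, Ptprv, as a transcribed pseudogene. The rule used symbols and no measured value, but it was set with earlier results of these data known.

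The study took RNA from 5cc7 T cells 5 days after they were stimulated in culture with the MCC peptide, the stretch of moth cytochrome c that the 5cc7 receptor recognises, when the cells were blasts. The polyadenylated RNA was converted to biotin-labelled complementary RNA and applied to a pair of Affymetrix mouse 430 2.0 arrays, called set 1 and set 2 as in their titles. They form 1 group, with no resting, unstimulated or earlier sample, so no value below is a response to stimulation, and no strain, age or sex of the mice is named in the labels. The labels do not say whether separate cultures were used, so differences between set 1 and set 2 may be technical only.

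Protein tyrosine phosphatases remove phosphate from tyrosine and so oppose, or in some cases permit, the kinase cascades that start at the T cell receptor. CD45 keeps the kinase Lck ready to act, whereas enzymes such as SHP-1 and PTPN22 switch the activated kinases off. Dual-specificity phosphatases act on tyrosine as well as serine or threonine. The best known of them are the MAP kinase phosphatases, which inactivate ERK, JNK and p38 and are often themselves induced by those kinases.

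Above background means here an intensity that exceeded, on both arrays, the 95th percentile of probe sets for genes of liver, eye, pancreas and kidney. This bound was 52.9 on set 1 and 55.4 on set 2. Each gene was read from its brightest probe set. Values are linear intensities, given for both arrays or as mean ± SD (n = 2), and since probes differ in how strongly they bind, levels of different genes are not compared as abundances. Median intensity over all probe sets was 36.4 on set 1 and 37.9 on set 2. All 8 measured T cell markers were above background, among them Cd3e at 1398 ± 46.7 and Cd4 at 1119 ± 95.2. Both CD8 T cell markers were too, Cd8a at 65.6 and 67.3 and Cd8b1 at 190.5 and 235.3. Of other cell types, 6 of 7 B cell markers, 1 of 9 macrophage and dendritic cell markers and 1 of 4 NK cell markers were above background. For granulocytes and mast cells the count was 1 of 7, for stroma and endothelium 3 of 6 and for neurons 0 of 4. Some of these markers were bright. The B cell markers Ighm and Ms4a1 measured 2580.6 and 2163, and 389.7 and 365.1. The NK cell marker Klrd1 measured 1576.8 and 1683. The macrophage marker Csf1r differed between the arrays, at 57.3 and 146.7. Adgre1, at 39.7 and 76.6, and Lyz2, at 47.3 and 63.8, passed the bound on set 2 alone. Summed over the 9 macrophage and dendritic cell markers, intensity was 271.2 on set 1 and 446.3 on set 2. Whether the arrays differ in cell content was not tested.

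Of the 58 phosphatase genes, 29 were above background, against 47.5% of all named genes, so the share of the whole set was close to that of the array. By family the count was 11 of 16 for the non-receptor phosphatases, 12 of 24 for the dual-specificity phosphatases and 6 of 18 for the receptor type. Of the 29 genes, 22 reached at least 2 times the bound on both arrays and 7 did so at 10 times the bound. In whole-population RNA, fewer cells of a type and less RNA per cell cannot be told apart, and this holds for every level below.

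**Figure D1:**
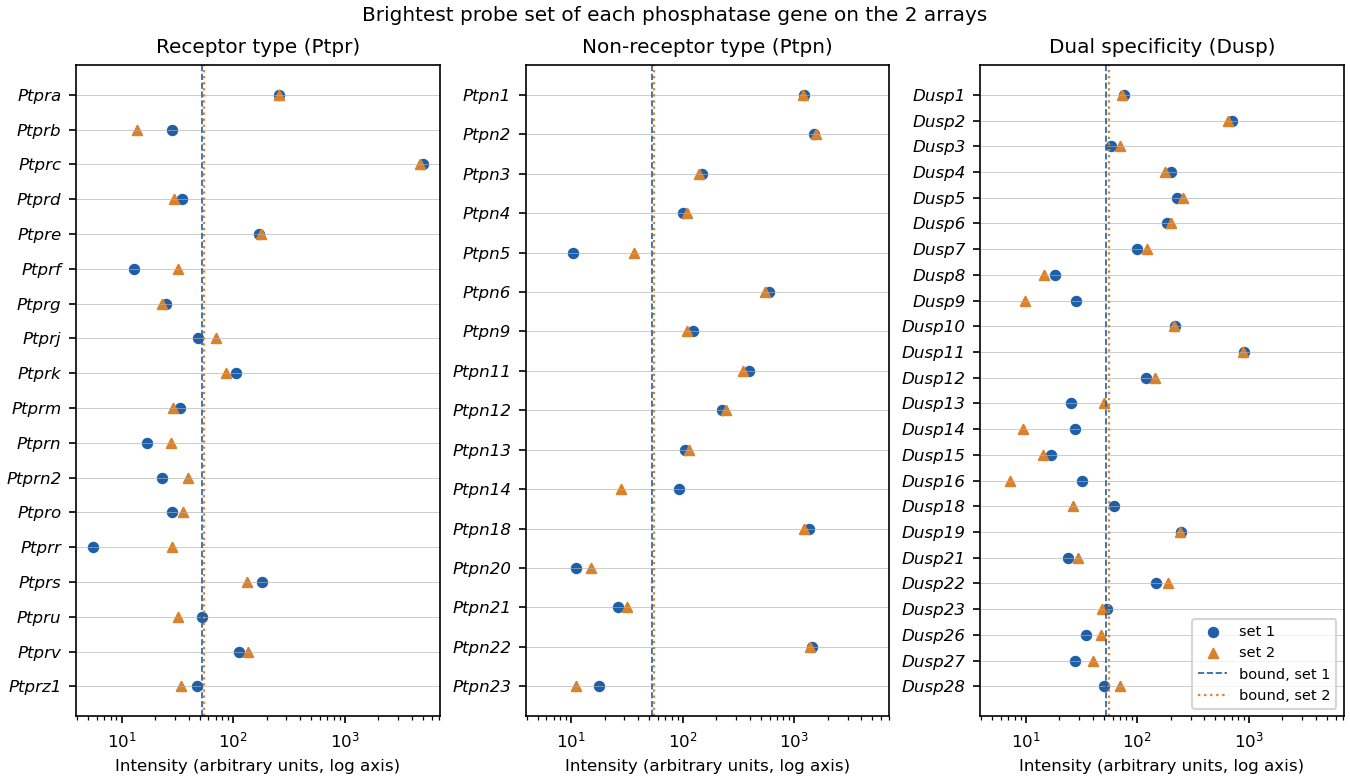
Intensity of the brightest probe set of each of the 58 genes on set 1 (circles) and set 2 (triangles), on a log axis in arbitrary units, in 3 panels for the receptor-type, non-receptor and dual-specificity genes. Dashed and dotted lines mark the background bounds of 52.9 and 55.4, and 29 genes lie to the right of the bound on both arrays.

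CD45, encoded by Ptprc and found on all white blood cells, was the clearest of the receptor-type phosphatases. Its brightest probe set measured 5038.4 on set 1 and 4745.6 on set 2. The second, 1440165_at, measured 185.3 and 185.1, so both probe sets were above the bound on both arrays while their intensities were far apart. The gene of its partner protein, Ptprcap, was at 1577.7 and 1552.6.

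Both members of the R4 subfamily, receptors with very short extracellular parts, were above background. Ptpra, whose product can activate Src family kinases, measured 255.7 and 259.9 with 1 of its 2 probe sets above the bound. Ptpre measured 168.8 and 178.4 with both probe sets above. The arrays differed little for either gene.

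The other receptor-type genes above background were Ptprs, Ptprk and Ptprv. Ptprs, a receptor for proteoglycans, measured 180.5 and 133.9, and 1 of its 4 probe sets was above the bound. Ptprk, a homophilic adhesion receptor with a role in helper T cell development, measured 105.4 and 87.0 with 1 of 7 probe sets above. Both genes were lower on set 2, by a log2 difference of -0.46 for Ptprs and -0.30 for Ptprk, and both calls rest on a single probe set.

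Ptprv measured 113.7 and 135.5 on its single probe set. RefSeq lists Ptprv as a transcribed pseudogene, the only one among the 58 genes, and places it over part of Ptpn7, the gene of the haematopoietic phosphatase HePTP. Ptpn7 itself was not analysed here, and which transcript the Ptprv probe set binds was not tested.

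The remaining 12 receptor-type genes were not above background, with means between 17.0 and 59.4. Ptprj (CD148), which in lymphocytes and myeloid cells acts on Src family kinases, measured 48.0 and 70.8 and so passed the bound on set 2 alone, with 0 of 4 probe sets above on both. The other 11 were Ptprb, Ptprd, Ptprf, Ptprg, Ptprm, Ptprn, Ptprn2, Ptpro, Ptprr, Ptpru and Ptprz1. Ptpro, a receptor phosphatase of kidney podocytes also found in lymphoid cells, measured 28.2 and 35.5. The 11 include genes known from neurons, endothelium and epithelium, and all 7 probe sets of Ptprd and all 4 of Ptprg were below the bound on both arrays.

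Among the non-receptor phosphatases, both genes of the subfamily of PTP1B and TCPTP were above background. Ptpn1 (PTP1B), which acts on JAK kinases and on the insulin receptor, measured 1223.7 and 1207.8. Its second probe set measured 263.1 and 258.1. Ptpn2 (TCPTP), which dephosphorylates Lck, JAK1 and STAT proteins, measured 1515.6 and 1559.9 on its brightest probe set and 645.1 and 655.0 on the second. The last 2 Ptpn2 probe sets were near the foot of the scale, at 7.0 and 20.5 for 1425197_at and at 12.1 and 7.0 for 1425198_at.

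All 3 genes of the PEST group, phosphatases with a proline-rich tail that binds partner proteins, were above background. Ptpn22, which acts with the kinase Csk to switch off Lck and ZAP-70, measured 1446.9 and 1394.9. Ptpn18 measured 1351.1 and 1223.2 on one probe set and 5.5 and 10.5 on the other. Ptpn12 (PTP-PEST), a regulator of adhesion and of the cytoskeleton, measured 225.2 and 243.6 with 3 of 4 probe sets above. Pstpip1, whose product binds the PEST phosphatases, was at 508.2 and 449.0, and Csk was at 590.7 and 583.1.

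Both SH2 domain phosphatases, which dock on phosphorylated receptors, were above background. Ptpn6 (SHP-1), a brake on receptor signalling, measured 598.8 and 548.9, and its second probe set measured 334.9 and 345.7. Ptpn11 (SHP-2), which more often promotes signalling to ERK, measured 390.0 and 348.1. The other 2 Ptpn11 probe sets were below the bound on both arrays, at 23.5 and 31.5 for 1427699_a_at and at 27.5 and 33.0 for 1421196_at.

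The phosphatases with a FERM domain, or grouped with them, divided evenly, with 3 of 6 above background. Ptpn3 measured 148.3 and 141.2, Ptpn4 measured 101.2 and 108.7, and Ptpn13 measured 103.9 and 112.8. Ptpn4 and Ptpn13 each had 1 of 2 probe sets above. Ptpn14 gave a mixed result. Its brightest probe set measured 92.2 on set 1 and 27.7 on set 2 and so passed on set 1 alone, while a dimmer one, 1455359_at, passed narrowly on both at 53.3 and 55.9. Ptpn20 and Ptpn21 fell short of the bound, at 13.1 ± 2.90 and 29.2 ± 3.89.

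Of the last 3 non-receptor genes, Ptpn9, whose product sits on secretory vesicles, was above background at 123.1 and 109.2. Ptpn5, known as STEP in the brain, was not at 10.3 and 36.9, with all 3 probe sets below the bound. Ptpn23, which works in endosomal sorting, was not at 17.9 and 11.1.

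All 4 MAP kinase phosphatases of the nuclear, inducible type were above background, where 47.5% of all named genes were. Their promoters are shown because this group is described as induced through short promoter elements, and RefSeq holds an entry for Dusp1, Dusp2 and Dusp5. Each line gives the 250 bases before the start of the gene on its own strand (GRCm38.p6). Capitals mark TGACG, the core of the cyclic AMP response element, in Dusp1 and Dusp5, the CArG box bound by serum response factor in Dusp5, and GGGCGG, the GC box, in Dusp2, all on either strand.
Dusp1 (chr17:26508473-26508722, minus strand): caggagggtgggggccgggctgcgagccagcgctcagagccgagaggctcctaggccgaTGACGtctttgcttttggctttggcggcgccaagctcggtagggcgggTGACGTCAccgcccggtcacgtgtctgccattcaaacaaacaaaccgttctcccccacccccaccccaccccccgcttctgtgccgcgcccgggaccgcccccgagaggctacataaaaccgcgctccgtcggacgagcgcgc
Dusp2 (chr2:127335909-127336158, plus strand): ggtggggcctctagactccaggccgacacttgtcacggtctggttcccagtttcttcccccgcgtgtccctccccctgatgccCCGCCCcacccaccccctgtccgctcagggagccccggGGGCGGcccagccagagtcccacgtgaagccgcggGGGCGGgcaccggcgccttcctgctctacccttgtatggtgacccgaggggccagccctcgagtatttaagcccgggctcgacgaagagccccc
Dusp5 (chr19:53528895-53529144, plus strand): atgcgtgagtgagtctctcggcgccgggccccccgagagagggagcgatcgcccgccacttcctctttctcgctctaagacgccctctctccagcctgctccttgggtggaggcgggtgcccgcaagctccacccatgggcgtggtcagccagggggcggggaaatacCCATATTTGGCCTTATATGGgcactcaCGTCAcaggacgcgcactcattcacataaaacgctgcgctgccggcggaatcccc

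The Dusp1 window held the full element TGACGTCA at -143 to -136, counted from the start, and a further TGACG at -191 to -187. The Dusp5 window held 2 CArG boxes side by side, at -82 to -73 and -72 to -63, and a TGACG on the opposite strand at -55 to -51. The Dusp2 window held 3 GC boxes and none of the other elements searched. The GC box was also present, unmarked here, 3 times in the Dusp1 window and once in that of Dusp5. Among 17492 protein-coding genes with such a window, the full element was found in 2.20%, TGACG in 22.6%, the CArG box in 1.60% and the GC box in 45.8%. The other elements searched, the AP-1 element TGANTCA and the TATA box TATAAA, were found in 7.19% and 13.7%. Both strands were searched, and every TGACGTCA also counts as a TGACG. A match is a string of letters and does not show that a factor bound in these cells.

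The elements were about as frequent in members with and without signal. Of 24 members above background with a promoter entry, 9 held TGACG, 2 of them as the full TGACGTCA, 16 the GC box, 1 the CArG box, 1 TGANTCA and 2 TATAAA. Of 23 members not above background, 9 held TGACG, 2 of them as the full TGACGTCA, 16 the GC box, 1 the CArG box, 1 TGANTCA and 0 TATAAA. The promoter windows of both sets were rich in CpG pairs, with a median of 20 in those above background and 18 in those not above, against 10 for all protein-coding genes.

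Dusp2 (PAC-1), first known from activated T cells, measured 707.1 on set 1 and 653.3 on set 2. Dusp5, which acts on ERK in the nucleus, measured 227.3 and 256.1. Dusp4, a phosphatase of ERK and JNK, measured 199.6 and 176.4. These 3 lay well above the bound on both arrays. Dusp1, an immediate early gene whose product acts on p38 and JNK, lay much nearer to it at 75.6 and 72.9. Each of the 4 genes had a single probe set, so no second one could be compared.

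Of the cytoplasmic phosphatases of ERK, 2 of 3 were above background. Dusp6, a feedback inhibitor of ERK, measured 182.9 and 201.4. Dusp7 measured 100 and 121 on its brightest probe set, a type marked as able to cross-hybridise. A second Dusp7 probe set without that mark measured 106.8 and 106.1. The third was below the bound on both arrays, at 40.9 and 38.2. Dusp9, known from placenta and liver, was not above background, at 18.9 ± 12.9, with all 3 probe sets below the bound.

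Of the phosphatases that prefer JNK and p38, 1 of 3 was above background. Dusp10 (MKP-5), a restraint on T cell cytokine output through JNK, measured 217.2 and 213.3, and its second probe set measured 54.8 and 57.3, just over the bounds. Dusp16 measured 32.1 and 7.3 and Dusp8 measured 18.4 and 14.6, so neither passed on any probe set. The MAP kinase phosphatases as a whole had 7 of 10 genes above background, against 47.5% of all named genes. With so few genes, neither this count nor those of its subgroups sets the group apart from that share.

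The atypical dual-specificity phosphatases, mostly small enzymes without the domain that docks on MAP kinases, had 5 of 14 genes above background. Over all named genes the share was 47.5%. Dusp11, which acts on RNA ends, measured 899.1 and 889.6, with a second probe set at 503.9 and 477.9. Dusp19 measured 246.6 and 239.9 on its brightest probe set, with 2 of 3 probe sets above. The second measured 78.1 and 107.1, under 2 times the bound on both arrays. Dusp22 (JKAP), which dephosphorylates Lck in T cells, measured 146.9 and 186.9. Dusp12 measured 118.8 and 145.3, and 1 of its 3 probe sets was above. On their brightest probe sets, both arrays placed these 4 genes at more than 2 times the bound. Dusp3 (VHR) was the member nearest above the bound, at 58.2 and 70.4, with 1 of 3 probe sets above.

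The other 9 atypical genes were Dusp13, Dusp14, Dusp15, Dusp18, Dusp21, Dusp23, Dusp26, Dusp27 and Dusp28. Dusp14 (MKP-6), whose product binds CD28 and restrains T cell receptor signalling, measured 27.5 and 9.5. Dusp28 passed the bound on set 2 alone at 50.4 and 70.3, and Dusp18 and Dusp23 passed on set 1 alone, at 62.2 and 26.6 and at 53.6 and 48.3. The remaining 5 were below the bound on both arrays.

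A list of 24 phosphatases with a known role in lymphocytes, chosen from their known functions, had 23 measured genes, of which 19 were above background (82.6%). Of the 35 members outside that list, 10 were (28.6%), and of all named genes 47.5% were. The list was drawn up with earlier results of these data known, so the contrast is a description and no independent evidence. The 4 lymphocyte genes not above background were Ptprj, Ptpro, Dusp14 and Dusp16. The 10 others above background were Ptpn3, Ptpn9, Ptpn13, Ptprs, Ptprv, Dusp3, Dusp7, Dusp11, Dusp12 and Dusp19.

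Probe sets of the same member could differ in their calls. Of 37 members with several probe sets, 17 had none above background, 6 had all and 14 had some. The 14 are part of the 20 members with at least 1 probe set above. Over all named genes of this kind the share with mixed calls was 62.5%. The 6 genes in which every probe set was above were Ptprc, Ptpre, Ptpn1, Ptpn6, Dusp10 and Dusp11. Of the 128 probe sets, 41 were above background on both arrays (32.0%), against 38.2% of all probe sets. A further 4 passed on set 1 alone and 4 on set 2 alone, where 2.46% and 2.59% of all probe sets did so.

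**Figure D2:**
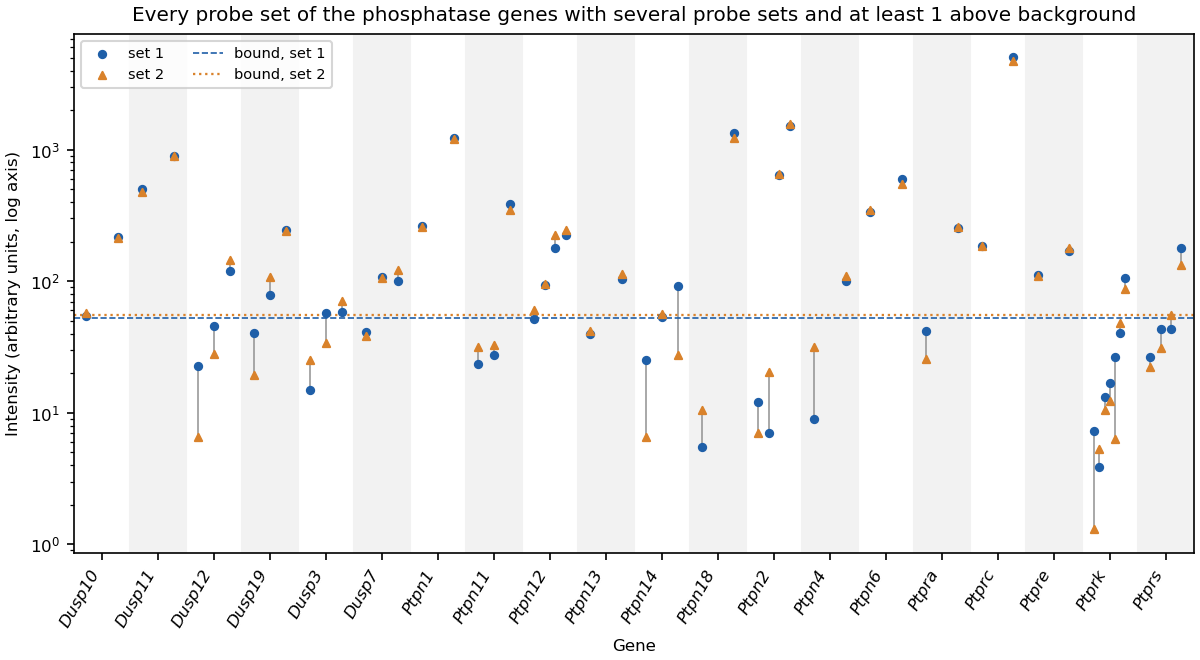
Intensity of every probe set of the 20 phosphatase genes with several probe sets and at least 1 above background, on a log axis in arbitrary units, with set 1 as circles, set 2 as triangles and a grey line joining the 2 arrays. In 14 genes, among them Ptpn2, Ptpn11, Ptpn18 and Ptprk, some probe sets lie below the bounds while others lie above.

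Calls were also counted by kind of probe set, for the members only. The same shares over the whole array were not counted. A difference between kinds can therefore not be taken as particular to the phosphatases. Of 25 probe sets annotated to a curated RefSeq messenger RNA, 14 were above background, and of 92 annotated to other sequence records, 24 were. The other 11 had no listed record, and 3 of them were above. Probe sets with the suffix x_at, which may bind unrelated transcripts, were above in 3 of 4 cases, for Ptpn6, Ptpn12 and Dusp7. Other probe sets of these genes were above background too. Of 4 probe sets with the suffix s_at, 1 was above, the brightest of Dusp19.

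The 2 arrays gave nearly equal values for the members above background. Over the 41 probe sets, Pearson's r of log2 intensity was 0.994, a description over probe sets that share the same 2 arrays. The log2 difference, set 2 minus set 1 and centred on the median of all probe sets above background, had an SD of 0.18, against 0.24 over all 17225 such probe sets. Its median was -0.03 for the members, with 17 probe sets higher on set 2 and 24 lower. No member probe set above background differed by more than 1.5-fold, where 1.97% of all probe sets above background were higher and 0.894% lower on set 2 by that much. With 41 probe sets, a count of 0 is close to those shares.

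Per gene, the SD between arrays was 5.81% of the mean at the median of the 29 genes, from 0.751% for Dusp11 to 21.0% for Ptprs. Below the bound the arrays differed far more. The SD of the log2 difference was 1.07 over the 87 member probe sets not above background, and 1.07 over all such probe sets. Differences such as that of Ptprr, at 5.5 and 28.5, or Dusp16, at 32.1 and 7.3, lie in this range.

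**Figure D3:**
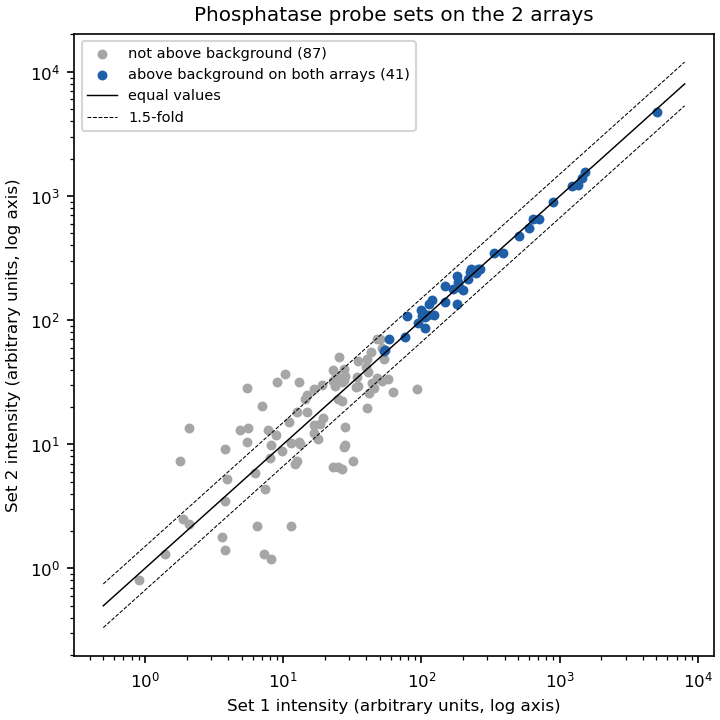
Intensity of the 128 phosphatase probe sets on set 1 (horizontal) and set 2 (vertical), both on log axes in arbitrary units, with the 41 above background on both arrays in blue and the other 87 in grey. The solid line marks equal values and the dashed lines 1.5-fold, and every blue point lies between the dashed lines while the grey points scatter widely.

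Genes that act with the phosphatases were counted from lists of pathway genes. Of 25 measured kinases, adaptors and substrates around the T cell receptor and cytokine receptors, 25 were above background, including Lat, an adaptor at 1559.3 and 1499.5, and Zap70 at 855.3 and 957.0. All 6 measured MAP kinase kinases also passed, with Map2k1 at 579.9 and 582.9. Of 12 measured MAP kinases 5 were above background. These were Mapk14 (p38 alpha) at 606.6 and 604.5, Nlk at 557.3 and 605.2, Mapk9 (JNK2) at 179.8 and 214.5, Mapk6 at 143.2 and 188.2, and Mapk8 (JNK1) at 114.8 and 153.1. The other p38 genes Mapk11, Mapk12 and Mapk13 and the neuronal Mapk10 (JNK3) were not above background on any probe set. Mapk15 passed the bound on set 1 alone, at 53.6 and 54.9.

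Receptors on a list of inhibitory and related receptors, many of which recruit the SH2 domain phosphatases, were above background in 12 of 21 cases. Ctla4 was at 1844.7 and 1827.6, Slamf6 at 923.5 and 798.0, Cd5 at 846.1 and 831.0 and Btla at 644.2 and 655.4. Pdcd1 (PD-1) passed the bound on set 2 alone, at 36.1 and 64.7, as did Klrg1 at 47.0 and 69.5 and Sirpa at 49.6 and 63.1. The B cell receptor Cd22, a docking site for SHP-1, was at 228.1 and 213.9, beside the 6 of 7 B cell markers above background, and the part of B cells in the phosphatase levels was not tested.

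Phosphatases of other families, outside the naming rule, were above background in 26 of 33 cases. They included Ptp4a2 at 1814.6 and 1716.4, the slingshot phosphatase Ssh2, which acts on cofilin, at 963.2 and 968.2, the low molecular weight phosphatase Acp1 at 878.7 and 867.4, and Mtmr6 at 560.3 and 562.4. Ubash3a, a suppressor of T cell receptor signalling, was at 486.5 and 486.7. Cdc25c, Epm2a and Eya1 were among the 7 not above background. Of these 7, Epm2a passed the bound on set 1 alone at 67.9 and 43.1, and Styxl1 on set 2 alone at 42.8 and 68.2.

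**Figure D4:**
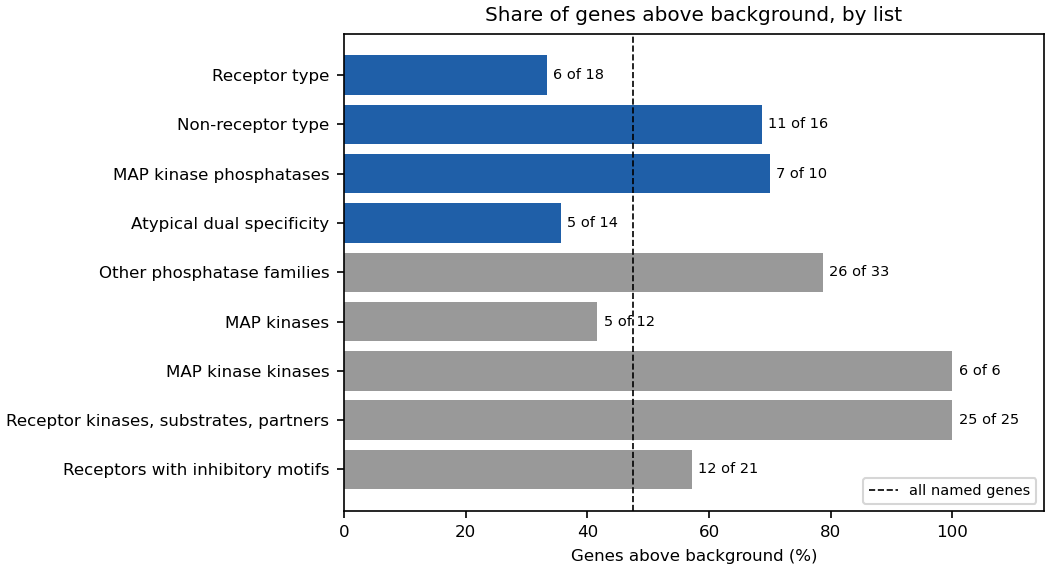
Percentage of measured genes above background on both arrays for the phosphatase families (blue) and for lists of related genes (grey), with the number of genes beside each bar. The dashed line marks the 47.5% of all named genes, which the non-receptor and MAP kinase phosphatases exceed and the receptor-type and atypical phosphatases do not reach.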

How the data were processed

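The deposited table holds 1 intensity per probe set and array on a linear scale, read from values between 0 and 8860.2. How the authors corrected background, summarised probes and scaled arrays is not given in the sources used here. Of 45101 probe sets, 64 manufacturer controls were left out. Of all probe sets, 34958 had 1 gene symbol in GEO's platform annotation, 932 had several and 9211 had none, and only the first were used for names. All 128 member probe sets matched RefSeq (GRCm38.p6) by Entrez identifier, which changed 0 symbols. The bound came from 49 probe sets of 36 off-tissue genes, and 3 of these genes still exceeded it. They were Kap at 127.4 and 129.6, Bfsp2 at 54.2 and 64, and Cyp2e1 at 55.8 on both arrays. Some members called above background, such as Dusp1 and Ptprk, had lower intensities than Kap. Intensities under 1 were set to 1 before log2. With 1 group of 2 arrays nothing was tested, and having only 2 arrays limits the precision. Promoter windows came from RefSeq for 47 of 58 genes.

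The members and lists were chosen with earlier results of these data known. Every member is named. Both arrays' values are given for members above background, for the lymphocyte list, and for members, and pathway genes of the other lists, on different sides of the bound on the 2 arrays; other lists give counts, up to 4 genes of highest intensity and up to 3 below the bound in alphabetical order, and other genes named were chosen after their values were seen. Alternatives were another percentile or the array median as bound, the median over probe sets, single arrays, quantile normalization, no centring and a floor of 16. The functions were tested on simulated data. Python 3.11.15, numpy 2.4.6, pandas 2.3.3 and scipy 1.17.1 were used.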

Additional observations from a re-analysis of the deposited data

How the results depend on the processing

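The number of phosphatase genes above background, 29, was 32 with a bound at the 90th percentile, 32 with each array's median intensity as the bound, 24 when a gene was read from the median of its probe sets, 29 after quantile normalization, and 31 to 32 when either array was left out. The share of all named genes above background moved too, from 47.5% to 52.6%, 55.3%, 40.7% and 47.5% in that order, and to 50.04% and 50.05% with set 1 or set 2 alone. The number of phosphatase genes was 30, beside 47.6% of all named genes, when any probe set could make the call, an alternative chosen after seeing the data that adds Ptpn14. The median over probe sets lost Ptpn11, Ptprk, Ptprs, Dusp3 and Dusp12, so 24 genes kept their call under each of these 7 alternatives. Dusp23, Dusp28 and Ptprj were gained under either lower bound. Levels depended on the reading of probe sets too. With the median over probe sets, 18 of the 29 genes moved by more than their SD between arrays. Ptprc went from 4892 to 2539, Ptpn2 from 1538 to 333 and Ptpn11 from 369 to 30.3. Quantile normalization moved 0 genes by that much. The 41 member probe sets above background became 45 with either array left out. The SD of the log2 difference over member probe sets above background rose from 0.18 to 0.20 with the 90th percentile bound and to 0.20 with the array median bound, both of which admit dimmer probe sets. The count of members beyond 1.5-fold was 0 under both other bounds, quantile normalization, no centring and a floor of 16, the alternatives run for it. No paired analysis was possible because there is a single group. Intensities near the bound cannot tell a weakly expressed gene from an absent one, and a call below it does not show absence.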
